A study of Homo sapiens with 4 samples.

Results

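The ZNF genes of chromosome 19 were taken as all protein-coding RefSeq genes of that chromosome whose symbol starts with ZNF, 250 of the 1451 protein-coding genes there and of 20033 in the whole table. They were divided by cytogenetic band, from each gene's midpoint on hg38. The pericentromeric 19p12 cluster held 33 genes, from ZNF93 to ZNF254 (chromosome 19, 19900946 to 24129968). The 19q13 clusters held 165 genes, from ZNF507 to ZNF446 (32345610 to 58489533), and the other 52 genes lay on 19p13 or, in the case of ZNF536, at 19q12. Of the 250 symbols, 4 hold a hyphen. ZNF559-ZNF177, ZNF816-ZNF321P and ZNF765-ZNF761 are readthrough loci, which join neighbouring genes in a common transcript. ZNF470-DT does not join genes, and lies on the other strand from ZNF470.

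The data were chromatin immunoprecipitation sequencing (ChIP-seq) peaks from human cells labelled HSC, of the type stem cells and progenitors, grown in IMDM with fetal bovine and human serum. There was 1 ChIP and 1 input library of cells that received 20 ng/mL of transforming growth factor β1 (TGF-β1) for 2 h, and 1 ChIP and 1 input library of control cells. The treatment text of all 4 libraries, controls included, names GDF11 at 100 ng/mL as the alternative to TGF-β1, and no library name mentions it. The sources used here do not name the antibody. A peak list holds no expression values, so markers could not check the cell type. Each group had 1 library, so differences between the lists compare 2 libraries, no test between them was possible, and all intervals are 95% intervals that cover counting error only.

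ZNF genes encode proteins with tandem C2H2 zinc fingers that read DNA sequence. Many also carry a KRAB domain, which recruits the corepressor TRIM28 and through it the histone methyltransferase SETDB1, so that retroelements are packed into heterochromatin. Chromosome 19 carries large clusters of these genes, which grew by repeated tandem duplication, and the members of a cluster are therefore alike in sequence. In many cell types the bodies of ZNF genes are themselves marked by heterochromatin.

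The likeness could be measured in the RefSeq promoter sequences (GRCh38.p14, 250 bases before to 50 bases after the start), which matched 219 of the 250 members, 27 of them in 19p12 and 145 in 19q13. Aligned end to end, pairs of 19p12 promoters had a median identity of 79.7%, against 59.3% for pairs of 19q13 promoters, which pool several clusters over 26.1 Mb. Pairs within a single 19q13 band group had medians of 59.5% to 60.8%. In 19p12, 24 of 27 promoters had a counterpart in the cluster with at least 80% identity, against 19 of 145 in 19q13. Within 19q13.41 to q13.42 alone, 13 of 40 promoters had such a counterpart. Both 19q13 counts include ZNF816, ZNF765 and the readthrough loci that start from them, which match at 100% because the promoter is the same. The most alike 19p12 members that both had a peak were ZNF486 and ZNF626, with 88.3% identity. They are printed here with ZNF723, whose start was the nearest to any summit. Capitals mark CAGAC or its reverse complement GTCTG, the short core bound by SMAD3 and SMAD4, the transcription factors downstream of TGF-β. All are written 5′ to 3′ on the gene's strand.
ZNF486 (chr19:20166964-20167263, plus strand): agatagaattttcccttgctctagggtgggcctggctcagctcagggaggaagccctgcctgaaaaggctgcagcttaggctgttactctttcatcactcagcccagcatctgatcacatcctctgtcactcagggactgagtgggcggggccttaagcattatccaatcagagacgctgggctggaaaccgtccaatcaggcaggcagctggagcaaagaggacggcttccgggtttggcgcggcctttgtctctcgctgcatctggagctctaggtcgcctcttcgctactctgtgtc
ZNF626 (chr19:20661522-20661821, minus strand): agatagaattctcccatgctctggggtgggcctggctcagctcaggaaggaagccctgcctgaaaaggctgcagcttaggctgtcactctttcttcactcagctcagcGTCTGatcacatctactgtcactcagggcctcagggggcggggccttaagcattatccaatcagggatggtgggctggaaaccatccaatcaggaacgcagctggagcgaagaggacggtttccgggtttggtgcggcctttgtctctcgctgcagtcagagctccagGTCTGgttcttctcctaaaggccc
ZNF723 (chr19:22832041-22832340, plus strand): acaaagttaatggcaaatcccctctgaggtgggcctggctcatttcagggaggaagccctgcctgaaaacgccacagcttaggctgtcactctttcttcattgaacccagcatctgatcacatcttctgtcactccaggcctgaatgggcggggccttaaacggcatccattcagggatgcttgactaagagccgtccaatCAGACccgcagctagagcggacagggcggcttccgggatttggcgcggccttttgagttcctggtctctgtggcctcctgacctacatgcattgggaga

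The promoters of the 19q13 genes with a summit within 2 kb of the start are printed for contrast with the 19p12 promoters. ZNF568 and ZNF875 had TGF-β1 summits 1.72 kb and 1.90 kb past the start, and ZNF793 had a control summit 1.73 kb past it.
ZNF568 (chr19:36916082-36916381, plus strand): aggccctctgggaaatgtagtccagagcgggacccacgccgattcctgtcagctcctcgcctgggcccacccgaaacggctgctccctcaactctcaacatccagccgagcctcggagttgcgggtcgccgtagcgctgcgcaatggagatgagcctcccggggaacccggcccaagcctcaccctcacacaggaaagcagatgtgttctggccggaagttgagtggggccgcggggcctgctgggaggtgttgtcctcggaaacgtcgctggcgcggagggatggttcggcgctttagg
ZNF875 (chr19:37312587-37312886, plus strand): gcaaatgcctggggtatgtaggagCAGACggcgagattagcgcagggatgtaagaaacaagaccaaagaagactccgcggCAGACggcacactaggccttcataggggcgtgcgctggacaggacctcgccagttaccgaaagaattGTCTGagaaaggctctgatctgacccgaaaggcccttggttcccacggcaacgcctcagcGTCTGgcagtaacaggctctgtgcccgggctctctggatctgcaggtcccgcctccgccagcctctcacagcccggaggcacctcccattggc
ZNF793 (chr19:37506689-37506988, plus strand): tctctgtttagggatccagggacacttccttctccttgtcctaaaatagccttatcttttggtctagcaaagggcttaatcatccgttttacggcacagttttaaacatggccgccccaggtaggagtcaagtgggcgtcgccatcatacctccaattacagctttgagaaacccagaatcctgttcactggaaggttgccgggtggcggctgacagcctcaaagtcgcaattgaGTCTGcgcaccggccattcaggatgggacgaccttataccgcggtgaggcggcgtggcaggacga
The median number of CpG dinucleotides in the 300 bases was 10 in 19p12, 23 in 19q13 and 22 over 15842 protein-coding promoters. CAGAC, searched on both strands, was in 51.9% of the 19p12 promoters, 42.1% of the 19q13 promoters and 44.1% of all protein-coding promoters. GGCGCC, a palindrome bound by SMADs, was in 3.70% of the 19p12 and 15.2% of the 19q13 promoters, against 25.2% of all. Another sequence searched on both strands, AGATAA, which holds the core that factors of the GATA family bind, was in 7.41% of the 19p12 and 5.52% of the 19q13 promoters, against 7.57% of all. None of the 3 motifs contains another, and a match is a description of the sequence, not a bound site. No peak of either list overlapped any of the 219 promoter windows. The limit set for a count of 0, which is 3 counts, equals 1.37% of them. The same held for the 966 promoters of other chromosome 19 genes, with a limit of 0.311%.

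**Figure D1:**
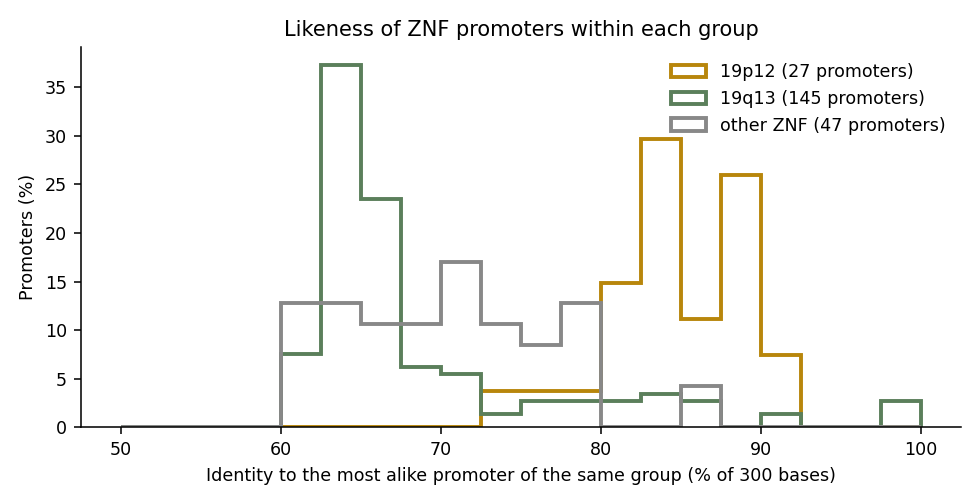
Histogram of the identity of each ZNF promoter to its most alike promoter of the same group, in percent of 300 bases (x axis), as the percentage of the promoters of that group (y axis). The 19p12 promoters centre on 84%, and those of 19q13 on 65.3%; 4 promoters of 19q13 at 100% belong to 2 readthrough loci and the genes they start from.

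A peak was assigned to a gene when its summit lay in it, or within 100 kb of it with no other protein-coding gene nearer. Peaks stood most often at 19p12 genes, in both lists. In the TGF-β1 list 21 of 33 genes of 19p12 had a peak (63.6%, exact Clopper-Pearson interval 45.1% to 79.6%), against 31 of 165 genes of 19q13 (18.8%, 13.14% to 25.6%) and 88 of the 1201 other protein-coding genes of chromosome 19 (7.33%, 5.92% to 8.95%). Over all protein-coding genes of the genome 25.3% had a TGF-β1 peak. By share of genes, 19p12 stood above this background, 19q13 near or below it, and the rest of the chromosome below it. This reading does not allow for the room around a gene, and per Mb the place of 19q13 was different, as given below. In the control list 9 of 33 genes of 19p12 had a peak (27.3%, upper bound 45.5%), against 5 of 165 of 19q13 (3.03%, 0.991% to 6.93%) and 26 of 1201 other genes (2.16%, 1.42% to 3.16%), with a genome-wide background of 9.28%. Of the 52 other ZNF genes of the chromosome, 9 were assigned TGF-β1 peaks and 3 control peaks. Of the 268 ZNF genes of other chromosomes, 87 (32.5%, 26.9% to 38.4%) were assigned TGF-β1 peaks and 21 (7.84%, 4.92% to 11.7%) control peaks.

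The share depends on the room around a gene, and 19p12 genes have more of it. The territory of a gene, which is the stretch where a summit would count for it, had a median of 119 kb in 19p12, 33.4 kb in 19q13 and 22.5 kb in the other genes of the chromosome, against 56.5 kb over the genome. Per Mb of territory, 19p12 had 8.83 TGF-β1 summits (35 summits, exact Poisson interval 6.15 to 12.3) and 19q13 had 5.99 (37 summits, 4.22 to 8.26). The other genes of chromosome 19 had 2.54 (100 summits, 2.07 to 3.09), and all protein-coding genes 3.93 (3.84 to 4.01). Per Mb, both 19p12 and 19q13 were thus above the genome-wide density, although the share of genes in 19q13 was not above the genome-wide share. The density in 19p12 was thus 1.47 times that in 19q13, with an exact interval of 0.901 to 2.40 that includes equality. Against the other genes of the chromosome it was 3.47 times in 19p12 (2.29 to 5.15) and 2.36 times in 19q13 (1.57 to 3.47).

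In the control list 19p12 had 2.78 summits per Mb (11 summits, 1.39 to 4.97), 19q13 had 0.810 (5 summits, 0.263 to 1.89) and the other genes of the chromosome 0.712 (28 summits, 0.473 to 1.03), against 1.12 over the genome. The ratio of 19p12 to 19q13 was 3.43 (1.10 to 12.6), and that of 19q13 to the other genes 1.14 (0.343 to 2.98). The ratio of TGF-β1 to control summits was 3.18 in 19p12 (1.58 to 6.95) and 7.40 in 19q13 (2.90 to 24.1), with overlapping intervals, against 3.01 for the whole lists. The −log10 q is the peak caller's score against local background, corrected for multiple testing. Counting peaks that reached a −log10 q of 5, the TGF-β1 shares dropped to 21.2% in 19p12, 6.06% in 19q13 and 0.666% in the other genes, and the interval of the control ratio then included 1 (0.375 to 245). The share over all protein-coding genes was not computed at this score.

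**Figure D2:**
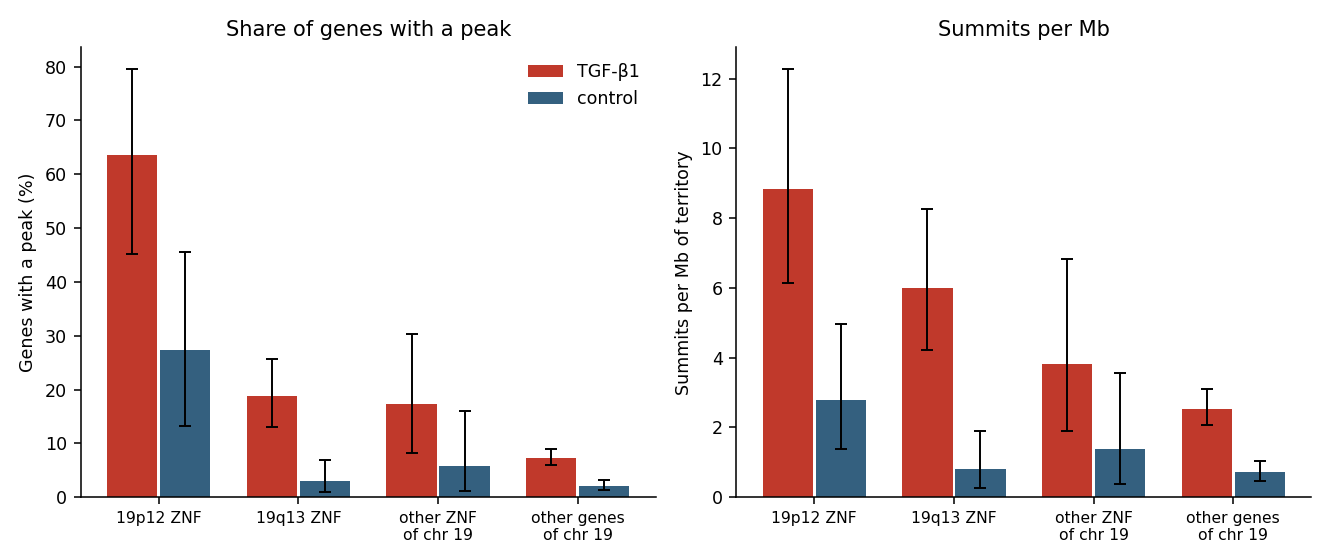
Percentage of genes with a peak (left) and summits per Mb of territory (right) for 4 groups of chromosome 19 genes, with TGF-β1 in red and control in blue; bars are the values and lines the exact 95% intervals of counting error (1 library per list). The gap between 19p12 and 19q13 in the TGF-β1 list is wide on the left (63.6% and 18.8%) and narrower on the right (8.83 and 5.99 per Mb).

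Among genes with a territory of at least 50 kb, 21 of 31 of 19p12 had a TGF-β1 peak (67.7%), 13 of 37 of 19q13 (35.1%) and 50 of 217 other genes (23.0%). Their median territories still differed, at 119 kb, 69.4 kb and 69.5 kb. In the control list the shares were 29.0% for 19p12, 5.41% for 19q13 and 6.91% for the other genes. The share over all protein-coding genes with such territories was not computed. The genome-wide backgrounds above cover territories of every size and are no measure for these shares.

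Within 19p12, peaks were spread over the cluster rather than gathered at a few genes. Of its 33 genes 11 had 1 TGF-β1 peak, 7 had 2, 2 had 3 and 1 had 4, and 24 had a peak in at least 1 of the lists. The longest row of neighbouring ZNF genes that each had a TGF-β1 peak ran over 5 genes, from ZNF257 to ZNF492.

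ZNF737 (20530276 to 20565781, minus strand) had the most TGF-β1 peaks of all 250 members. Its 4 TGF-β1 peaks had folds of 3.57, 2.71, 3.85 and 3.47 in order along the chromosome, and 3 of the summits lay inside the gene. The fold enrichment is the authors' value for a peak, the pileup of tags at the summit over the local background, each plus 1. Its control peak (20541478 to 20541636) had a pileup of 19 tags and a fold of 3.73, and lay inside the gene between TGF-β1 peaks, 7.26 kb from the nearest TGF-β1 summit.

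ZNF675 (23652801 to 23687212), which encodes an inhibitor of TRAF6 signalling also known as TIZ, held the highest fold of the members. The peak at 23655168 to 23655319 inside the gene had a pileup of 18 tags over a local background of 2.32, a −log10 q of 7.06 and a fold of 5.73, which placed it at rank 225 among the 15993 TGF-β1 peaks. Its other TGF-β1 peaks lay 52.9 kb and 63.2 kb downstream with folds of 4.67 and 2.88. The control list had no summit within 804 kb of ZNF675.

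ZNF100 (21722771 to 21767579) had 2 peaks in each list. The TGF-β1 peak inside the gene (21748726 to 21748917) had a −log10 q of 7.03 and a fold of 5.32. The other TGF-β1 peak lay 6.41 kb downstream with a fold of 3.39, and a control peak with a fold of 4.11 lay beside it at 8.25 kb, with the summits 1.84 kb apart. The other control peak was 82.9 kb downstream with a fold of 3.17.

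ZNF257 (22052484 to 22091480), first described as a bone marrow zinc finger gene, had 3 TGF-β1 and 2 control peaks, all outside its body. Just downstream lay the closest pair of summits of the 2 lists at any member, a TGF-β1 peak at 22093356 to 22093491 (pileup 29, fold 4.35, −log10 q 7.65) and a control peak at 22094294 to 22094518 (pileup 21, fold 3.41, −log10 q 3.57), whose summits were 0.966 kb apart. The peaks themselves did not overlap.

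ZNF723 (22812218 to 22858667) had 1 peak in each list, both inside the gene. The TGF-β1 peak (22831751 to 22831917, pileup 17, fold 4.65) had its summit 0.420 kb before the start whose promoter is printed above, the shortest distance from any summit to a start among the members. The control peak (22848797 to 22848960, pileup 24, fold 4.23) lay 16.6 kb past that start.

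The other 19p12 genes with peaks in both lists were ZNF626 and ZNF708. ZNF626 had TGF-β1 folds of 2.88 and 3.34 and a control fold of 3.55. ZNF708 had TGF-β1 folds of 3.85 and 2.60, both downstream, and a control peak 0.453 kb past its end with a fold of 3.98. The −log10 q of that control peak, 6.79, was the highest of the control peaks at ZNF genes. Among 19p12 genes with TGF-β1 peaks alone, ZNF730 had folds of 4.81 and 4.31, ZNF729 had 4.63, and ZNF492 had 4.34 and 3.47. ZNF728 had a summit 0.988 kb inside one of its ends, with a fold of 3.50. ZNF66 had the highest pileup at a ZNF gene, 39 tags over a local background of 8.84, with a −log10 q of 9.43 and a fold of 4.06.

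**Figure D3:**
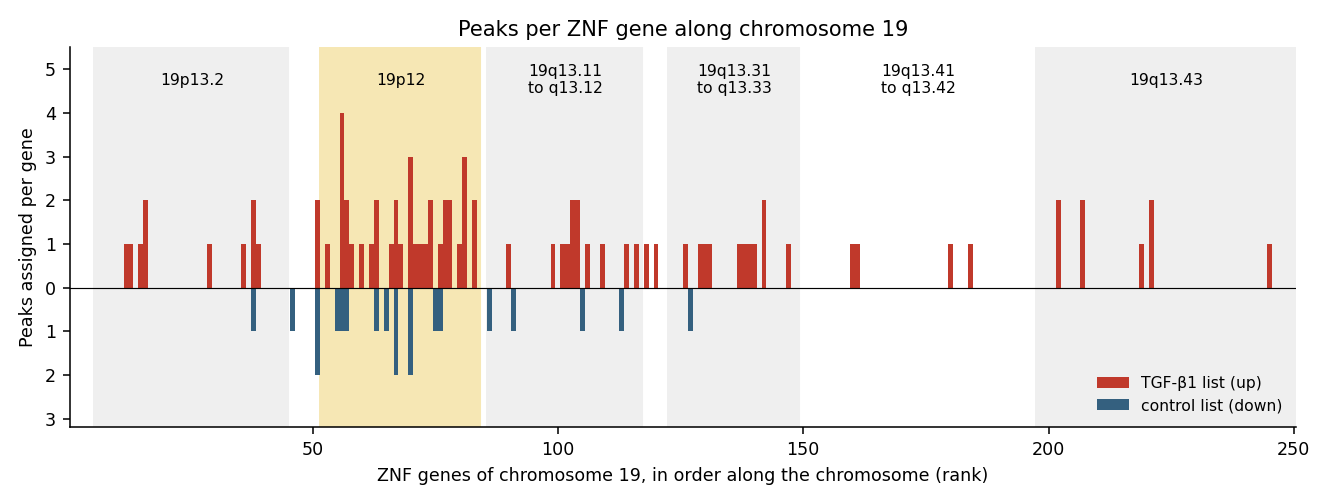
Number of peaks assigned to each of the 250 ZNF genes (y axis, TGF-β1 upwards in red, control downwards in blue), in their order along chromosome 19 (x axis, rank), with bands of at least 20 genes named. The 19p12 genes (yellow) have the most peaks per gene in the TGF-β1 list, 35 summits over 33 genes. No control peak was assigned to the ZNF genes of 19q13.41 to q13.42 and 19q13.43.

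Within 19q13, the share and density varied by band, mostly with overlapping intervals. In 19q13.31 to q13.33, 10 of 27 genes had a TGF-β1 peak, with 12.3 summits per Mb (11 summits, 6.12 to 21.9), and in 19q13.11 to q13.12, 10 of 32 genes, with 6.26 per Mb (12 summits, 3.24 to 10.9). In 19q13.41 to q13.42, 4 of 48 genes had one, with 2.34 per Mb (4 summits, 0.637 to 5.99), and in 19q13.43, 5 of 53, with 5.43 per Mb (8 summits, 2.34 to 10.7). In the small 19q13.2 group 2 of 5 genes had a peak, with 11.4 per Mb (2 summits, 1.38 to 41.0). Over all protein-coding genes 25.3% had a TGF-β1 peak, with 3.93 summits per Mb. The density intervals include 3.93 in every band group but 19q13.31 to q13.33, where the interval lies above it. The density of 19p12 was 0.720 times that of 19q13.31 to q13.33 (0.357 to 1.57), an interval that includes equality. The density in 19q13.31 to q13.33 was 5.25 times that in 19q13.41 to q13.42 (1.55 to 22.6), a comparison chosen after the values were seen. Median territories were 32.3 kb and 33.7 kb in these 2 stretches, so the room around a gene was close to equal. At ZNF genes, the control list had 4 summits in 19q13.11 to q13.12, 1 in 19q13.31 to q13.33 and 0 in 19q13.41 to q13.42 and in 19q13.43.

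In 19q13 the highest TGF-β1 fold was at ZNF875 (37312837 to 37364455), whose peak at 37314613 to 37314800 had a pileup of 21 tags, a −log10 q of 7.49 and a fold of 5.40. ZNF155 (fold 4.67, 43986383 to 43986712) and ZNF345 (fold 4.59, 36854777 to 36854992) also had summits inside the gene. ZNF568, whose mouse counterpart represses a placental transcript of Igf2, had 2 TGF-β1 peaks inside, with folds of 4.05 and 4.06. ZNF837 had the highest −log10 q at a ZNF gene, 9.62, with a pileup of 38 over a local background of 8.28 and a fold of 4.20.

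Peaks of both lists were assigned to 0 of the 165 genes of 19q13, where 31 had a TGF-β1 peak and only 5 a control peak, so few shared genes could occur. Over all protein-coding genes the share with both was 5.35%. The 5 with a control peak were ZNF507 (fold 4.29, 43.0 kb upstream), ZNF420 (fold 3.75, inside), ZNF404 (3.39), ZNF793 (3.36, inside) and ZNF792 (2.78). ZNF420 encodes a KRAB protein that restrains p53, also known as APAK. The TGF-β1 list came no nearer than 120 kb to ZNF507 and 27.6 kb to ZNF420.

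On 19p13, ZNF44 (12224686 to 12294883) and ZNF253 (19865830 to 19894674) had peaks in both lists. ZNF44 had TGF-β1 folds of 3.25 and 3.55 and a control fold of 3.55. ZNF253, another gene first named for bone marrow, lies next to the limit of 19p12 and had TGF-β1 folds of 3.08 and 2.90 and control folds of 3.001 and 2.92. With it, 8 of the 250 members had peaks in both lists, 6 of them among the 33 genes of 19p12. The 8 are 47.1% of the 17 members with a control peak, and 61 members had a TGF-β1 peak. Over all protein-coding genes, 1071 had peaks in both lists, out of 1860 with a control peak and 5077 with a TGF-β1 peak. The members thus did not stand above the genome in this share.

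Overlap of peaks between the lists was rare everywhere over low local background, and the ZNF genes did not stand apart in it. Of the 83 TGF-β1 peaks at ZNF genes, 0 overlapped the control list, for a limit of 3.61%, and of the 20 control peaks there, 0 overlapped the TGF-β1 list, for a limit of 15.0%. Among all peaks over low local background (at most 5 times the genome-wide value), 0.810% of TGF-β1 peaks and 3.20% of control peaks overlapped the other list, and both of these lie below the limits. On chromosome 19 as a whole, 0 of 193 TGF-β1 and 0 of 47 control peaks over low local background overlapped the other list. In 19p12, 3 of 35 TGF-β1 summits had a control summit within 10 kb, against 0 of 37 in 19q13. Control summits were also denser in 19p12, at 2.78 per Mb of territory against 0.810 in 19q13. Whether the closeness goes beyond that density was not tested, and the share over all TGF-β1 peaks was not computed.

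The median heights of the peaks lay close together in the clusters. The median fold of TGF-β1 peaks was 3.57 in 19p12, 3.65 in 19q13 and 3.38 at the other genes of the chromosome, against 3.46 in the whole list. The medians of control peaks were 3.41 in 19p12, 3.39 in 19q13 and 3.34 at the other genes, against 2.97 in the whole list. The whole control list is an unlike set, since 40.6% of its peaks lay over high local background, against 0 of 20 at ZNF genes. In the whole TGF-β1 list that share was 17.4%. In 19p12, TGF-β1 folds ran between 2.60 and 5.73 and control folds between 2.52 and 4.23. Pileups at ZNF genes ran between 11 and 39 tags for TGF-β1 and between 15 and 30 for the control, so each peak rests on few reads. A −log10 q of at least 5 was reached by 19 of the 83 TGF-β1 and 4 of the 20 control peaks.

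High local background, above 5 times the genome-wide value, was less common at TGF-β1 than at control summits of protein-coding genes. It lay under 0 of the 83 TGF-β1 summits of the ZNF genes and under 82 of 8192 at all protein-coding genes (1.00%). For control summits the counts were 0 of 20 at the ZNF genes and 216 of 2329 at all protein-coding genes (9.27%). Exact intervals of 0% to 4.35% and 0% to 16.8% at the ZNF genes include these shares. At the other genes of chromosome 19 the counts were 5 of 100 TGF-β1 summits (5.00%, 1.64% to 11.3%) and 2 of 28 control summits (7.14%, 0.877% to 23.5%). The median local background at TGF-β1 summits was 1.70 times the genome-wide value in 19p12 and 2.12 times in 19q13. At control summits it was 2.47 times in 19p12 and 2.19 times in 19q13.

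**Figure D4:**
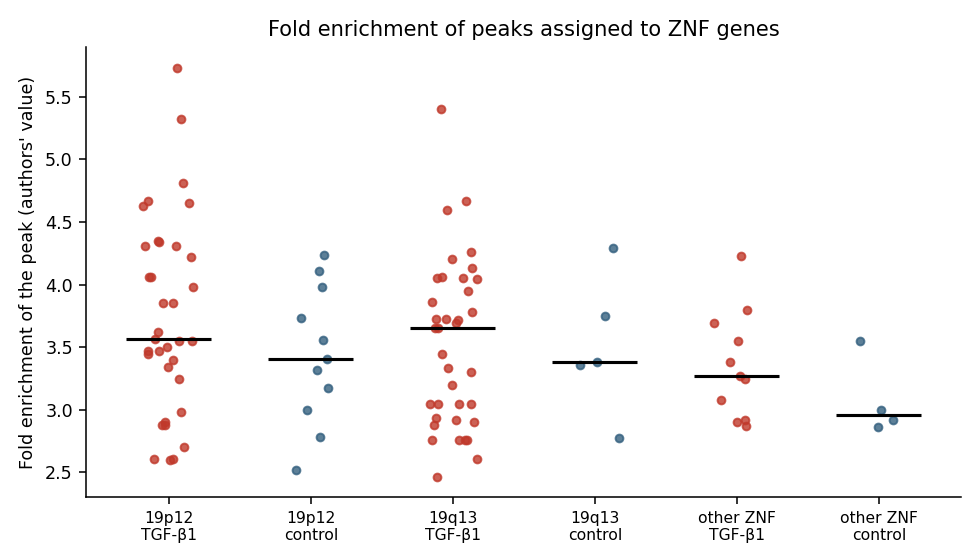
Fold enrichment of each peak assigned to a ZNF gene (authors' values, y axis), by cluster and list (x axis, TGF-β1 in red and control in blue); points are peaks, spread sideways for sight, and black lines are medians. The 19p12 and 19q13 medians of the TGF-β1 list, 3.57 and 3.65, lie close together, and the 3 peaks above a fold of 5 are at ZNF675, ZNF875 and ZNF100.

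In 19p12 and in 19q13 as a whole, the share of TGF-β1 summits inside gene bodies was near the share of territory that bodies fill. Of the TGF-β1 summits 37.1% in 19p12 lay inside a gene, where bodies make up 35.8% of the territory, and 70.3% in 19q13, where they make up 65.1%. Bands of 19q13 departed from this in both directions. In 19q13.11 to q13.12 all 12 summits lay inside (bodies 61.8% of territory), and in 19q13.43 3 of 8 did (bodies 62.0%). At the other genes of the chromosome 50 of 100 TGF-β1 summits and 10 of 28 control summits (35.7%) lay inside, where bodies fill 62.7%. For control summits the share was 27.3% in 19p12 (3 of 11), and in 19q13 2 of 5 lay inside. Inside the gene, 33.3% of 19p12 genes and 14.5% of 19q13 genes had a TGF-β1 summit, against 15.8% of all protein-coding genes. Control summits were inside 3 of 33 genes of 19p12 (9.09%, 1.92% to 24.3%) and 2 of 165 of 19q13 (1.21%, 0.147% to 4.31%). Over all protein-coding genes the share was 5.5%, which the 19p12 interval includes. Per Mb of gene body the TGF-β1 summits numbered 9.15 in 19p12 (4.87 to 15.6), 6.47 in 19q13 (4.23 to 9.48) and 2.03 in the other genes of the chromosome (1.51 to 2.67). Exons and introns were not analysed here.

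Outside the bodies of 19p12 genes, 18 TGF-β1 summits lay downstream and 2 upstream of genes with a known strand, where the downstream stretches measure 1.28 Mb and the upstream ones 0.849 Mb. In 19q13 the counts were 4 downstream and 7 upstream, over 0.792 Mb and 1.14 Mb. Some downstream summits of 19p12 share a gene, such as the 3 of ZNF257. Sides were not counted for genes other than ZNF genes, so whether the lean in 19p12 is particular to it was not tested. The control summits of 19p12 lay downstream in 6 cases and upstream in 1. The median distance to the start was 19.4 kb for 71 TGF-β1 assignments and 34.9 kb for 17 control assignments. Within 1 kb of a start lay 1 TGF-β1 summit, that of ZNF723, and 0 control summits.

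Zinc finger genes known to bind retroelements were examined as a list of 18, chosen with earlier results of these data known. TGF-β1 peaks were assigned to 7 of them (38.9%, 17.3% to 64.3%) and control peaks to 2 (11.1%, 1.38% to 34.7%), against backgrounds of 25.3% and 9.28%. ZNF91, which represses SVA and LINE-1 elements in primates, had a TGF-β1 summit 13.5 kb away with a fold of 3.55. ZNF93, which binds LINE-1 elements, had no peak; the TGF-β1 summit nearest to it, 11.4 kb away, lay inside ZNF253. ZNF43 (3.55), ZNF98 (3.98), ZNF257 (4.35) and ZNF429 (2.90) had TGF-β1 peaks in 19p12. None of the 7 list members in 19q13 had a peak of either list.

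Of 19 genes for TRIM28 and its partners, 2 had TGF-β1 peaks (10.5%, 1.30% to 33.1%, against 25.3% of all protein-coding genes) and 3 had control peaks (15.8%, 3.38% to 39.6%, against 9.28%). Both intervals include the background. HDAC2, a histone deacetylase, had a TGF-β1 fold of 3.05 inside the gene, and TASOR, a subunit of the HUSH silencing complex, 3.38 at 1.63 kb. The control peaks lay inside ATRX, a chromatin remodeller (4.21), CBX3, a heterochromatin protein (3.54), and MPHOSPH8, another HUSH subunit (2.94). TRIM28 itself, at the end of 19q13 (58544064 to 58550715), had no peak, and lay 173 kb from a TGF-β1 summit and 1091 kb from a control summit. Of the 19 chromosome 19 zinc finger genes named otherwise, 4 had TGF-β1 peaks (21.1%, 6.05% to 45.6%) and 1, ZSCAN5C (fold 2.88), had a control peak (5.26%, 0.133% to 26.0%), shares near the backgrounds of 25.3% and 9.28%. Their median territory was smaller, at 32.8 kb against 56.5 kb over the genome. Per Mb of territory they had 7.44 TGF-β1 summits (2.73 to 16.2) and 1.24 control summits (0.0314 to 6.91), against 3.93 and 1.12 over the genome. ZSCAN4, a gene of early embryos, had a TGF-β1 fold of 5.07, ZSCAN1 had 4.47, ZFP82 had 4.32 and ZIM2 had 3.25. ZFP36, which belongs to this list by its name, encodes an RNA-binding protein with another type of zinc finger.

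The libraries held 45984282 (TGF-β1) and 36280696 (control) ChIP tags after removal of duplicates, with tag lengths of 43 bp and 60 bp. The TGF-β1 list put 205 of its 15993 peaks on chromosome 19 (1.28%), and the control list 51 of 5307 (0.961%). Since the ZNF genes of a cluster are alike in sequence, reads can be placed in the wrong copy, and the sources used here do not say whether reads were filtered on mapping quality. The part of tag length and of sequence likeness in these counts was not tested.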

How the data were processed

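The submitters' processing notes name Bowtie2, the build hg38 and MACS2 2.1.0; the file headers give MACS 2.2.7.1. Per the file headers, each list was called from 1 ChIP library and 1 input, with 0.05 as the q-value limit. The deposited pileup is a signal (coverage of extended tags at the summit, with the larger library scaled to the smaller). The deposited fold enrichment is a ratio, and the deposited −log10 p and −log10 q values come from the authors' peak caller. Positions and lengths are as deposited.

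Local background was computed from pileup and fold. Genes were those of the RefSeq table (GRCh38.p14), with strand from the promoter table. A summit inside overlapping genes counts for each. Bands used rounded hg38 limits. Members and lists were chosen with earlier results of these data known. Named were members with peaks in both lists, the 10 highest folds and the 5 highest peak counts per list, summits within 1 kb of a gene end, and genes of the lists. Other examples were chosen after their values were seen. Shares have exact Clopper-Pearson intervals, counts exact Poisson intervals and ratios exact conditional ones. The limit for a count of 0 is 3 counts. Territories and intervals were tested on simulated data. Promoters were aligned with Biopython 1.88. Other tools were Python 3.11.15, scipy 1.17.1 and pandas 2.3.3.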

Additional observations from a re-analysis of the deposited data

How the results depend on the processing

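No paired analysis was possible because each group held 1 library. The order of the shares (19p12 above 19q13 above the other genes of chromosome 19) was the same under every alternative, except for control peaks among genes with a territory of at least 50 kb, an alternative chosen after seeing the data. The alternatives draw on the same peaks and are not independent, and lists of equal length were run for TGF-β1 only. Control shares of 19q13 and the other genes had overlapping intervals, at 3.03% (0.991% to 6.93%) and 2.16% (1.42% to 3.16%). With a −log10 q of at least 5 they rested on 1 of 165 and 5 of 1201 genes. With a −log10 q of at least 5, TGF-β1 shares were 21.2% (19p12), 6.06% (19q13) and 0.666% (other genes), and control shares 9.09%, 0.606% and 0.416%. With lists of equal length by fold, TGF-β1 shares were 33.3%, 6.06% and 1.58%. These alternatives leave fewer peaks by construction. Shares over all protein-coding genes were computed for the 100 kb limit and for summits inside the gene, and for no other alternative. With summits inside the gene only, TGF-β1 shares were 33.3% (19p12) and 3.83% (other genes), and control shares 9.09% and 0.749%. The 10 kb limit gave 5.25% for TGF-β1 at other genes. Territories of at least 50 kb gave TGF-β1 shares of 35.1% (19q13) and 23.0% (other genes) and a control share of 6.91% (other genes). Clusters drawn as runs of ZNF genes, low local background only and symbols with a hyphen left out (chosen after seeing the data) moved no share or ratio beyond its interval. The TGF-β1 density ratio of 19p12 to 19q13 ran between 1.25 and 1.98 over the alternatives, each interval including 1. The control ratio ran between 3.40 and 4.71, and its interval included 1 with a −log10 q of at least 5 and inside genes only (0.486 to 50.8). An overlap of at least 50% of the shorter peak also found 0 shared peaks. The limits are 1 library per list, few tags per peak and the likeness of the genes.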

Other observations

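Beyond the 100 kb limit, 11 TGF-β1 and 2 control summits had a ZNF gene of chromosome 19 as the nearest protein-coding gene. Of these, 8 TGF-β1 and both control summits lay beyond ZNF254, the last 19p12 gene, at 105 kb to 775 kb (TGF-β1) and at 764 kb and 768 kb (control). Both control summits and 5 of the 8 TGF-β1 summits were over high local background, whereas 0 of the peaks assigned to chromosome 19 ZNF genes were. The highest pileup was 134 tags over a local background of 41.3 (24891613 to 24891762, fold 3.19, −log10 q 24.1) in the TGF-β1 list, and 92 tags over 37.1 (24894212 to 24894390, fold 2.44, −log10 q 9.91) in the control list. The other TGF-β1 summits beyond the limit were 106 kb from ZNF91 (fold 4.52), 128 kb from ZNF675 (3.80) and 127 kb from ZNF536 (4.23), a gene of neuronal differentiation. Just within the limit, the farthest summits counted were at 79.1 kb from ZNF429 in the TGF-β1 list and 82.9 kb from ZNF100 in the control list.

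The longest row of neighbouring ZNF genes without an assigned peak of either list held 23 genes, from ZNF416 to ZNF497 in 19q13.43, over 0.791 Mb. The row counts ZNF genes only, and the stretch itself was not free of peaks. ZSCAN4 and ZSCAN1, which lie in it, had TGF-β1 peaks with folds of up to 5.07 and 4.47. Apart from ZNF genes, the 19p12 stretch held 2 protein-coding genes, of which RPSA2 had a TGF-β1 peak (fold 3.62) and LOC124904660 a control peak (fold 3.17).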
